A study of Mus musculus with 12 samples.

Results

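The cytosolic ribosomal protein genes encode the proteins of the ribosome that works in the cytoplasm. They were taken here as the protein-coding mouse genes whose symbol is Rpl or Rps with a number, with or without a final a or x, together with Rplp0, Rplp1, Rplp2 and Rpsa. This gave 76 genes of 21627 protein-coding genes on chromosomes 1 to 19 and X, 46 of the large subunit (Rpl, stalk proteins included) and 30 of the small subunit (Rps and Rpsa). The rule leaves out a few true ribosomal protein genes with other names, such as Rps3a1 and Fau, which are given apart.

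The data are lists of broad peaks of 2 histone marks in C57BL/6 mouse embryos of 6 morphological stages, made with CoBATCH, in which antibody-guided Tn5 transposase tags marked chromatin in single cells. H3K27ac marks active promoters and enhancers, and H3K4me1 marks enhancers and the flanks of active promoters. In order, the stages were Pre_PS, before the primitive streak appears (E6.0), then ES (E6.0 and E6.5), MS (E6.0 and E7.0) and LS (E7.0 and E7.25), with an early, mid and late streak, then OB, which the labels describe as lacking an allantoic bud (E7.25 and E7.5), and EHF, with early head folds (E7.5). All groups were of the same strain, the labels name no treatment or genetic change, and extraembryonic tissue was dissected away at Pre_PS, ES, MS and LS; the labels do not say so for OB and EHF. There was 1 list for each stage and mark, 12 in all, so there are no replicates, and no difference between stages could be set against a spread or tested. How single cells were combined into a list is not given in the sources used here. With 1 list for a stage and mark, a weaker peak may mean fewer cells with the mark or less mark in each cell, which cannot be told apart here.

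Each ribosome carries 1 copy of nearly every ribosomal protein, so dividing cells need the products of all these genes together and in quantity. Their promoters are known as short, CpG-rich and mostly without a TATA box, and transcription often begins at a C inside a run of pyrimidines. That run becomes the 5' end of the mRNA, the terminal oligopyrimidine (TOP) motif, through which mTOR signalling sets how strongly ribosomal protein mRNAs are translated. Many also carry binding words for ETS-family factors such as GABPA, for SP1 and for YY1. The genes are short, and introns of many of them hold small nucleolar RNAs (snoRNAs), which guide the modification of ribosomal RNA.

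Promoter windows of 56 members were matched in RefSeq's table for GRCm38.p6, the assembly that mm10 names. Stretches of 9 are printed from 60 bases before the start of transcription to its first 20 bases, 5' to 3' on the gene's strand, so that the start is the base after the first 60. Capitals mark the longest run of C and T that reaches within 10 bases of the start, where it has at least 5 bases. The first 3 belong to the genes with the highest mean H3K27ac fold percentile over the 5 later stages, as given further on.
Rpl27a (chr7:109519135-109519214, plus strand): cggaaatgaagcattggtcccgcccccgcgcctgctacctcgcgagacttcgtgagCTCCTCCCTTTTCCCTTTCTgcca
Rpl35 (chr2:39005112-39005191, minus strand): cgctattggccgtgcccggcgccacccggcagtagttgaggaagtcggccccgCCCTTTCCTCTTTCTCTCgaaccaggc
Rpl37 (chr15:5116553-5116632, plus strand): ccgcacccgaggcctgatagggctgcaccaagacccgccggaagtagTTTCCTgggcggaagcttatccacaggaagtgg
The next 3 are among the 5 members with the lowest mean H3K27ac fold percentile, and their H3K27ac start peaks were also narrow. The lowest of the 5, Rps4x, is not printed, and its run has 4 bases.
Rps26 (chr10:128626487-128626566, minus strand): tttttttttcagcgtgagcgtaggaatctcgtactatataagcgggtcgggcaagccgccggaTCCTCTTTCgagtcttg
Rps27 (chr3:90213629-90213708, minus strand): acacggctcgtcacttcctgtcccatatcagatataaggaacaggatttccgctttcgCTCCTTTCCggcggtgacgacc
Rpl4 (chr9:64173327-64173406, plus strand): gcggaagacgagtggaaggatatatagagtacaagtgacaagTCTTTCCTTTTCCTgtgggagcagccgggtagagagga
The last 3 belong to the members that had no peak over the start in any of the 12 lists.
Rps9 (chr7:3703981-3704060, plus strand): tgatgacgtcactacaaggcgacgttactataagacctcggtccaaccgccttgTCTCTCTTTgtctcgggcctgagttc
Rpl10 (chrX:74270756-74270835, plus strand): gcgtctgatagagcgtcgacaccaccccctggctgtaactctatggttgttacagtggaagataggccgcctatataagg
Rpl36a (chrX:134585594-134585673, plus strand): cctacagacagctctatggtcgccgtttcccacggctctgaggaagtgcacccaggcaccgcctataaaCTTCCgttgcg
The runs of Rpl27a and Rpl35 cover the start and are 20 and 18 bases long, from position -4 to 16 and from -7 to 11, where the first transcribed base is 1. Rps27, with weak peaks, has a run of 9 bases over its start, and Rps9, with no peak, has one as well, also of 9. Rpl10 has none of at least 5 bases.

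Over all 56 windows of 300 bases (250 before the start and 50 from it), a run of at least 5 pyrimidines covered the start in 18 (32.1%), against 8.70% of the windows of all 17273 protein-coding genes with a listed start. A run of at least 8 within 10 bases of the start occurred in 25 (44.6%, against 13.7%), and the first base was a C in 19 (33.9%, against 13.9%). The ETS word CCGGAA, searched on both strands, was in 28 windows (50%, against 19.3%), and the YY1 word AAGATGG in 9 (16.1%, against 6.40%). The SP1 word GGGCGG was in 33 (58.9%, against 46.9%), while TATAAA was in 6 (10.7%, against 13.4%) and the E-box CACGTG in 5 (8.93%, against 8.01%). No word contains another, and a match is a word in the window, not a measured site. The windows held a median of 21 CpG dinucleotides, against 14 for all genes. The genes had a median length of 3170 bp, against 17330 bp, and 29 of 76 (38.2%, against 1.72%) held a snoRNA gene.

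**Figure D1:**
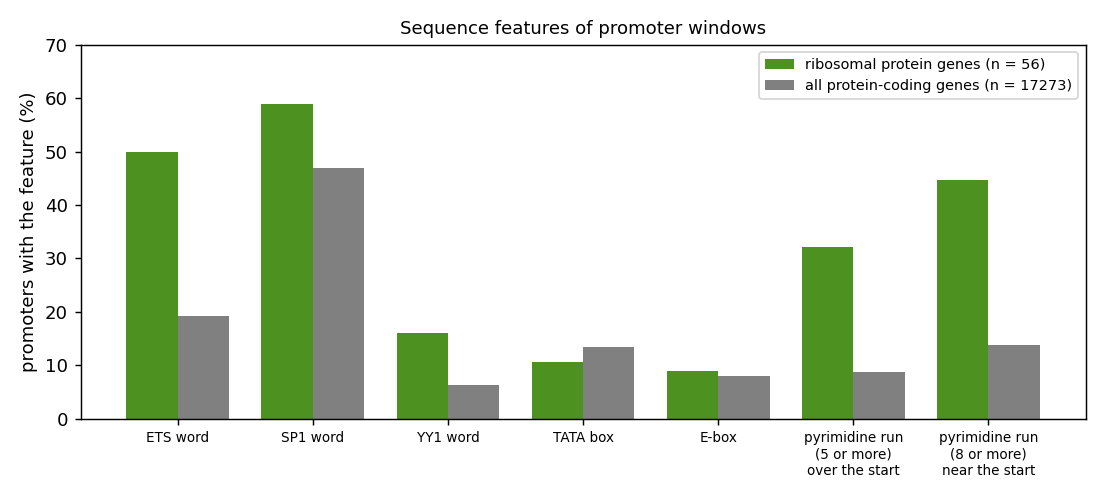
Share of promoter windows (percent, vertical axis) with each sequence feature, for the 56 ribosomal protein genes with a listed start (green) and for all 17273 protein-coding genes with one (gray). The ETS word and the pyrimidine runs differ most between the bars, at 50 against 19.3% for the ETS word, while the TATA box and E-box bars are close together.

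Members with and without these words overlapped widely in H3K27ac. The H3K27ac percentile used here ranks the authors' deposited fold of the peak over the start among such peaks of all genes in the same list, averaged over the 5 later stages. Its median was 63.8 in the 25 members with the ETS word and a start peak at all 5 later stages, and 67.2 in the 25 without the word. It was 69.5 with the SP1 word (n = 30) and 54.9 without it (n = 20), and 59.6 with a pyrimidine run of at least 8 bases near the start (n = 23) and 71.8 without one (n = 27). The ranges overlapped in each pair, from 8.48 to 93.9 with the SP1 word and from 11.2 to 84.8 without it.

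From the early streak stage on, nearly all members carried both marks. A peak of H3K27ac lay within 5 kb of the gene for 54, 72, 71, 72, 72 and 72 of the 76 members from Pre_PS to EHF, against 52.3, 73.8, 71.8, 74.4, 72.9 and 72.6% of all protein-coding genes. A peak of H3K4me1 did so for 52, 71, 71, 71, 73 and 72 members, against 65.8, 76.2, 75.1, 75.8, 75.7 and 73.2%. At all 5 later stages H3K27ac was found at 71 members (93.4%, against 69.4%) and H3K4me1 at 70 (92.1%, against 71.5%), and 70 had both marks in all 10 of these lists (92.1%, against 69.0%). With Pre_PS as well, H3K27ac was found at all 6 stages at 54 members (71.1%, against 51.6%) and H3K4me1 at 50 (65.8%, against 61.4%), and 41 (53.9%, against 47.1%) had peaks in all 12 lists. No peak was found at any later stage for 3 members in H3K27ac (3.95%, against 23.1%) and for 3 in H3K4me1 (3.95%, against 21.1%); over all 6 stages these were 3 (against 22.9%) and 2 (2.63%, against 19.4%). The Pre_PS lists cover the least of the genome. The H3K27ac list held 13398 peaks over 14.3 Mb, against 30072 to 39635 peaks over 35.9 to 42.1 Mb later. The H3K4me1 list covered 23.4 Mb, against 39.1 to 51.3 Mb later, though its 36739 peaks were not the fewest (35646 at EHF). Of these 36739 peaks, 24712 lay at the lowest p of that list. The part of this in the lower Pre_PS counts was not tested.

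Other genes of basic cell function were marked as widely. H3K27ac lay within 5 kb at all 5 later stages for 73 of 78 mitochondrial ribosomal protein genes (93.6%), 37 of 39 proteasome genes and 68 of 70 translation factor genes, against 11 of 1106 olfactory receptor genes. The shares of the first 3 lists are close to that of the cytosolic ribosomal proteins.

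**Figure D2:**
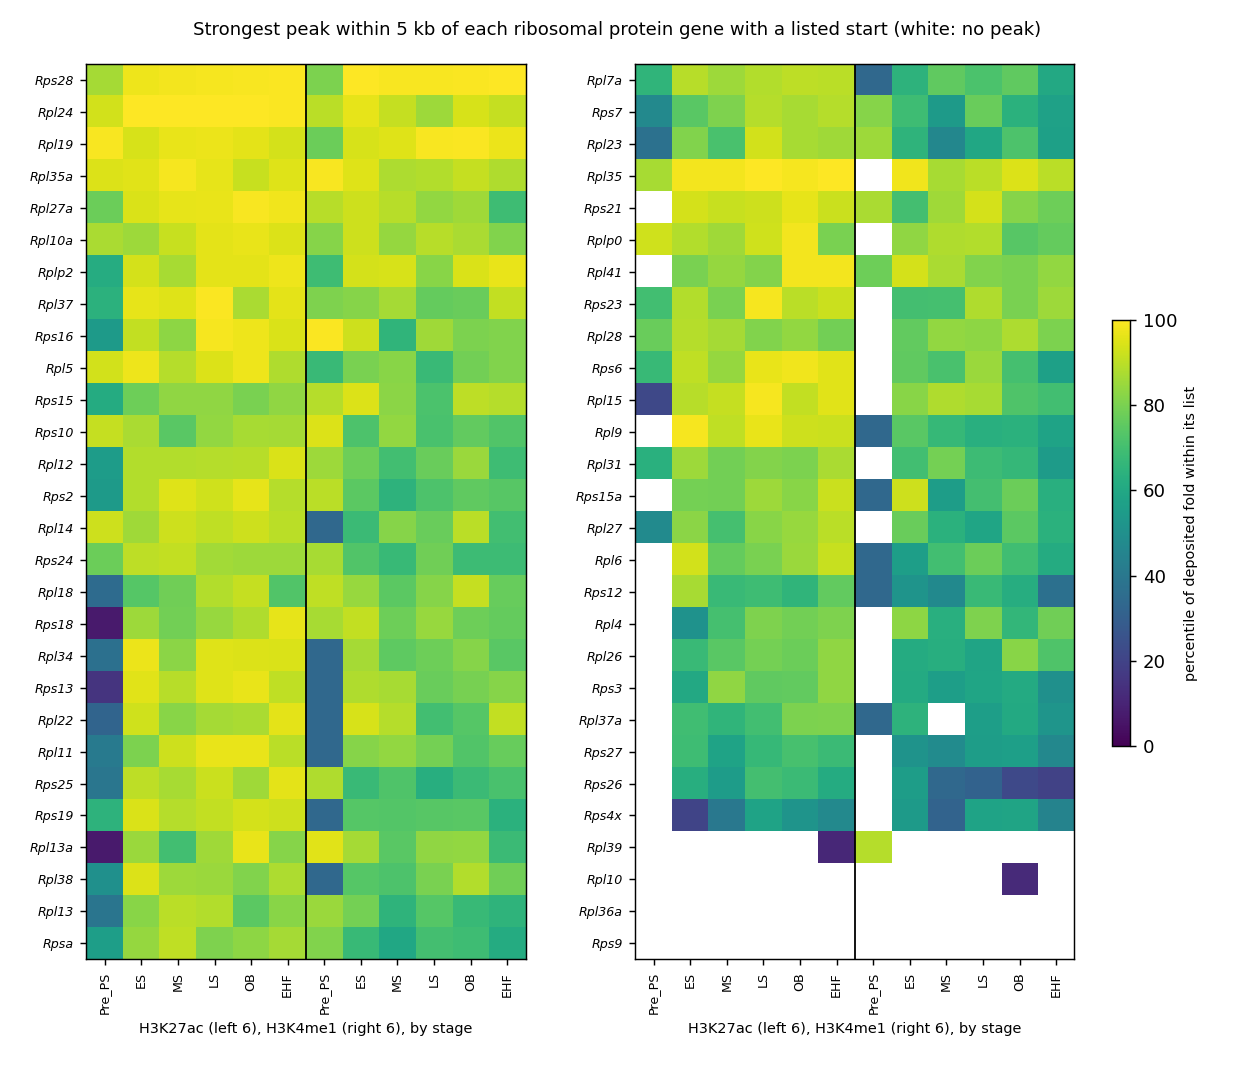
For each of the 56 genes with a listed start (rows, in 2 panels ordered by number of lists with a peak), the color gives the percentile of the deposited fold of the strongest peak within 5 kb among all peaks of its list; columns are the 6 stages of H3K27ac and then of H3K4me1, and white means no peak. Rps9 and Rpl36a are white throughout, Rpl10 and Rpl39 nearly so, and most other white cells are at Pre_PS.

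A start peak, meaning one within 500 bp of a listed start, was found for H3K27ac at 34, 51, 51, 52, 51 and 52 of 56 members (42.0, 63.7, 62.4, 64.7, 63.4 and 63.8% of all genes with a start). For H3K4me1 it was found at 30, 50, 49, 50, 52 and 50 members (44.7, 65.4, 64.7, 65.8, 65.6 and 64.1%). At all 5 later stages there were 50 members with an H3K27ac start peak (89.3%, against 60.8%) and 48 with an H3K4me1 one (85.7%, against 62.3%). Over all 6 stages there were 34 (60.7%, against 41.8%) and 28 (50%, against 43.4%).

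The peaks lay over the start itself. Of the 48 members with 1 listed start, 41 to 43 (85.4 to 89.6%) had the start base inside an H3K27ac peak at the later stages, against 56.0 to 57.9% of all genes with 1 listed start. The H3K4me1 lists had it inside a peak for 38 to 42 (79.2 to 87.5%), against 57.1 to 59.0%. No member showed an uncovered start with peaks within 2 kb on both sides in any of the 10 later lists. In the H3K4me1 list of Pre_PS 1 of 48 did, against 0.606% of all genes with 1 listed start. Among all such genes this pattern was found in 0.234 to 0.489% at the later stages. As over all genes, the peaks reached further into the gene than away from it. The median H3K27ac peak extended 375 to 439 bp upstream and 617 to 686 bp downstream of the start, against 398 to 435 and 672 to 713 bp over all genes. It was longer downstream in 33 to 38 of 41 to 43 members (79.1 to 88.4%, against 75.3 to 76.4% of all genes). H3K4me1 peaks also reached further into the gene, with medians of 298 to 337 bp upstream and 548 to 603 bp downstream. They were thus shorter on both sides than the H3K27ac peaks. Over all genes the H3K4me1 medians were 409 to 429 and 662 to 696 bp.

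**Figure D3:**
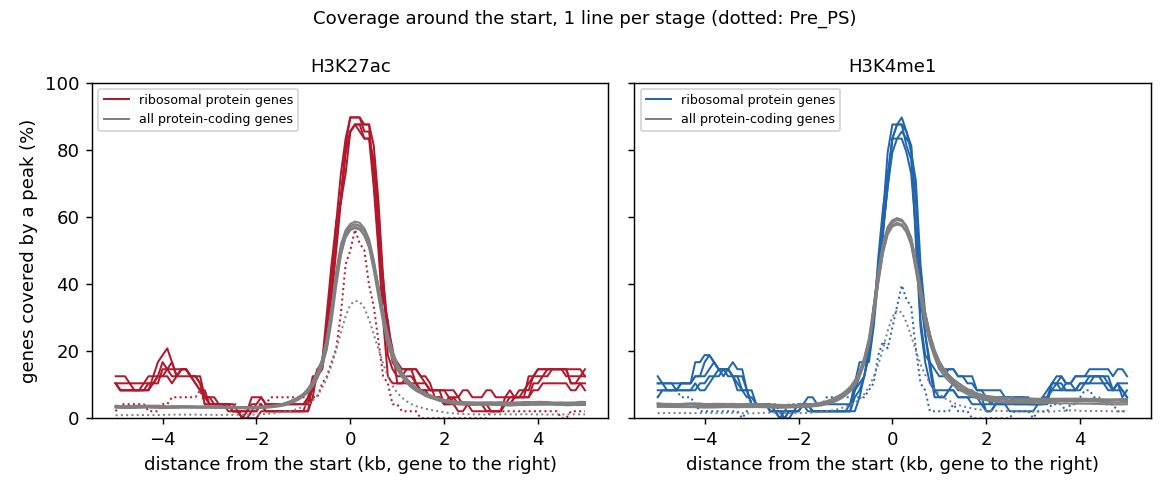
Share of genes covered by a peak (percent, vertical axis) at each distance from the start (kb, gene to the right), for the 48 ribosomal protein genes with 1 listed start (color) and all 14512 such genes (gray), 1 line per stage with Pre_PS dotted. At the later stages the start base of the ribosomal protein genes is covered in 79.2 to 89.6%, and the curves are shifted to the gene's side.

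The marks differed in how strong the start peaks were. Within the same list, the H3K27ac start peaks of members ranked above the middle of all genes' start peaks, and their H3K4me1 start peaks below it. The median percentile among start peaks was 61.3, 61.5, 62.4, 66.6 and 68.4 for H3K27ac from ES to EHF and 27.2, 29.5, 31.6, 31.2 and 26.7 for H3K4me1. The H3K27ac rank was not particular to the members. Its later medians were 52.4 to 68.1 for mitochondrial ribosomal protein genes, 61.2 to 66.7 for proteasome genes and 55.3 to 69.8 for translation factor genes. For H3K4me1 these lists had 42.1 to 46.8, 38.5 to 55.5 and 35.5 to 37.4, so most of their medians were also below the middle, though above those of members. Of the members with a start peak, 35 of 51, 32 of 51, 35 of 52, 40 of 51 and 41 of 52 ranked above the middle of all start peaks for H3K27ac, and 9 of 50, 13 of 49, 9 of 50, 7 of 52 and 8 of 50 for H3K4me1. At Pre_PS the medians were 43.0 over 34 members and 52.9 over 30, in the other order. Of these 30 H3K4me1 start peaks, 13 lay at the lowest p of the list. In the 22 members with both, the median difference of percentiles among all peaks, H3K27ac minus H3K4me1, was -10.5. Over all genes this difference was -11.1. For mitochondrial ribosomal protein genes the Pre_PS medians among start peaks were 34.2 for H3K27ac and 46.0 for H3K4me1. Proteasome genes had 44.8 and 62.4, in the same order as members, while translation factor genes had 59.5 and 56.3. All genes had 49.9 and 50.1. Among all peaks of a list, where most peaks lie away from starts, the later H3K27ac medians of members were 82.9 to 87.3 (all genes 77.7 to 82.5) and those of H3K4me1 63.8 to 72.0 (all genes 76.5 to 82.3). The strongest 10% of peaks of each H3K4me1 list held 0 to 12% of the members' start peaks at the later stages, against 21.5 to 28.8% of those of all genes.

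Taken gene by gene, 48 members had start peaks of both marks at all 5 later stages. The H3K27ac percentile among start peaks was above the H3K4me1 percentile at all 5 stages in 34 of them (70.8%, against 23.8% of 10420 genes) and below it at all 5 in 0 (against 22.6%). In the other 14 the order changed between stages, with H3K27ac higher at 4 of 5 stages in 12 of them and at 3 of 5 in Rpl18 and Rpl22. The mean difference over the stages was above 0 in all 48, with a median of 29.8 percentile points and a range from 2.83 in Rps4x to 62.4 in Rpl9. Mitochondrial ribosomal protein genes had a median of 12.7 (n = 60), proteasome genes 17.9 (n = 28) and translation factor genes 18.6 (n = 50), while all genes had 1.11; H3K27ac was higher at all 5 stages in 30.0, 53.6 and 44.0% of these 3 lists.

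**Figure D4:**
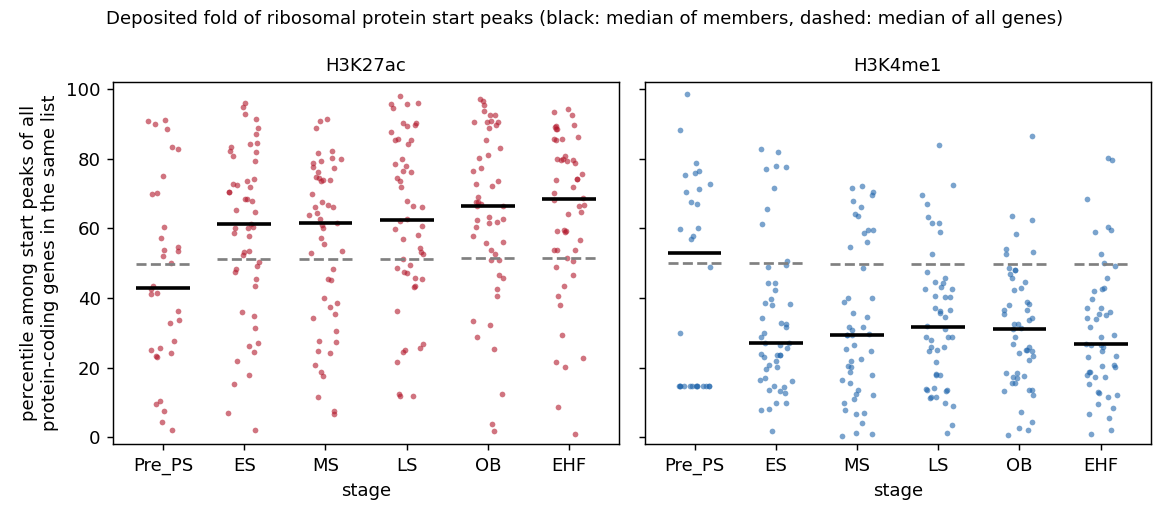
Percentile of the deposited fold of each member's start peak among start peaks of all protein-coding genes in the same list (vertical axis), by stage, with 1 point per gene, a black line at the members' median and a dashed line at the median of all genes. From ES to EHF the black lines lie at 61.3 to 68.4 for H3K27ac and at 26.7 to 31.6 for H3K4me1.

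The median start peak of members was narrower than that of all genes in each of the 12 lists. Their median width for H3K27ac was 834, 1181, 1084, 1088, 1050 and 1088 bp from Pre_PS to EHF, against 986, 1227, 1218, 1206, 1139 and 1201 bp over all genes. For H3K4me1 it was 542, 938, 932, 994, 1010 and 900 bp, against 692, 1165, 1149, 1204, 1193 and 1142 bp. Narrow peaks were not particular to the members. At the 5 later stages the H3K27ac medians were 849 to 983 bp for mitochondrial ribosomal protein genes and 968 to 1004 bp for proteasome genes, while those of translation factor genes were 1212 to 1373 bp. H3K27ac was the wider of the 2 marks in 43 of 49, 35 of 49, 36 of 50, 32 of 51 and 47 of 50 members from ES to EHF (87.8, 71.4, 72.0, 62.7 and 94.0%, against 56.3, 55.4, 49.6, 34.4 and 62.6% of all genes). The lower share at OB and the higher one at EHF were thus also seen over all genes.

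**Figure D5:**
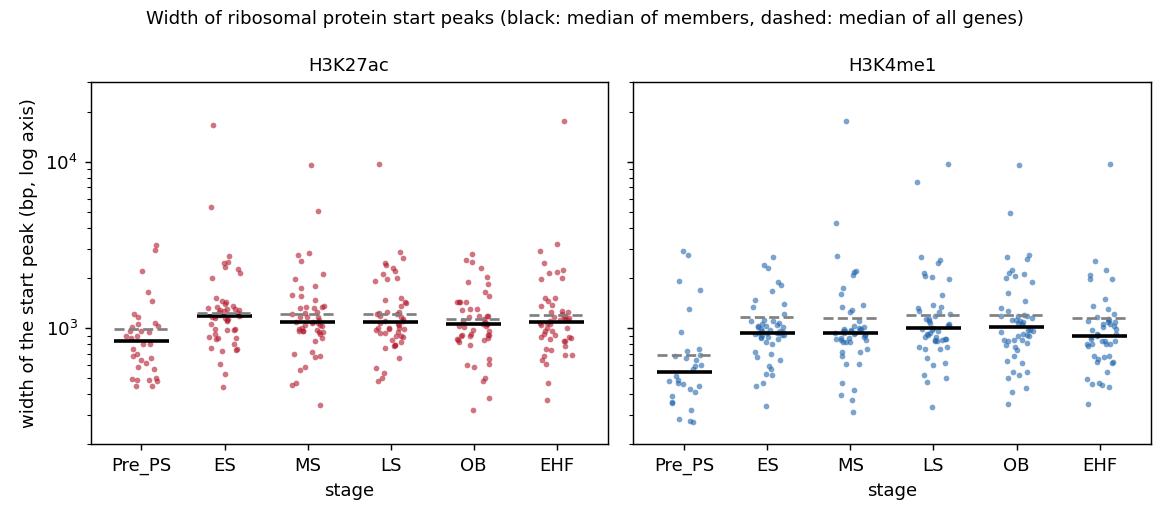
Width of the start peak (bp, log axis) of each member by stage and mark, with a black line at the members' median and a dashed line at the median of all genes. The black line is under the dashed one in all 12 lists, and the highest points, up to 17475 bp, belong to Rpl18.

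The strongest H3K27ac promoters were those of 4 large subunit proteins and 1 small subunit protein, by the mean percentile among all peaks of a list over the 5 later stages: Rpl35 (97.7), Rpl27a (96.8), Rpl37 (94.8), Rpl9 (94.1) and Rps13 (93.4). Rpl35 encodes a protein beside the exit of the tunnel through which new proteins leave the ribosome. Its H3K27ac start peak had deposited folds of 5.57, 21.4, 17.9, 28.8, 24.0 and 29.0 from Pre_PS to EHF, and its H3K4me1 peak, absent at Pre_PS, had 12.2, 9.71, 14.7, 18.4 and 11.4. Its percentile among start peaks was 91.0 to 96.6 for H3K27ac at the later stages and 42.8 to 86.5 for H3K4me1, so the ranges did not overlap. Rpl27a, which is mutated in the Sooty foot ataxia mouse, had H3K27ac folds of 4.98, 17.7, 18.1, 26.3, 24.4 and 30.1 and widths of 487, 1343, 1229, 1214, 1161 and 1166 bp. Its H3K27ac percentile among start peaks was lowest at Pre_PS (70.3) and 83.4 to 97.1 later. Rpl9, a large subunit protein near the base of the stalk, had no H3K27ac peak at Pre_PS and then percentiles of 96.2, 77.8, 89.7, 80.2 and 79.7, and for H3K4me1 14.7, 31.6, 24.7, 18.3, 18.5 and 18.8, the widest gap of any member. Rpl37 and Rpl9 have another protein-coding start within 1 kb, so their peaks also lie at a neighbour's start.

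The weakest of the members with a start peak at all later stages were Rps4x (43.4), Rpl4 (48.6), Rps26 (63.5), Rps27 (66.6) and Rps15 (71.8), of which the first 4 were also among the narrowest. Rps26, a small subunit protein at the mRNA exit channel and a Diamond-Blackfan anaemia gene, had no Pre_PS peak of either mark. Its later H3K27ac widths were 527, 558, 575, 477 and 466 bp and its percentiles among start peaks 18.0, 17.6, 26.7, 28.8 and 20.1. Its H3K4me1 percentiles were 9.88, 4.15, 3.64, 2.13 and 2.04, lower than the H3K27ac ones at every later stage. Rps27, a zinc-binding small subunit protein, had later H3K27ac widths of 751, 466, 533, 609 and 684 bp and H3K4me1 percentiles of 7.81 to 12.2; like Rpl4, it has another protein-coding start within 1 kb. Rpl4, a large subunit protein that lines the exit tunnel, had H3K27ac widths of 443, 581, 477, 380 and 605 bp, and H3K4me1 peaks over its start only at MS (396 bp) and OB (348 bp). Rpl24, the gene of the Belly spot and tail mouse, was narrow as well, at 608, 693, 898, 582 and 749 bp.

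The widest start peaks were at Rpl18 (mean 10892 bp), Rps15 (2845), Rpl7a (2800), Rpl22 (2215) and Rpl35a (2106). Rpl18, a large subunit protein, had H3K27ac widths of 16675, 9571, 9713, 1024 and 17475 bp from ES to EHF, so 1 peak spanned its promoter and neighbouring genes at all of these stages but OB. Rpl7a was steady by comparison, at 2724, 2739, 2868, 2769 and 2898 bp for H3K27ac and 2676, 2713, 2677, 2745 and 2511 bp for H3K4me1. Rpl18, Rpl7a and Rpl35a each have another protein-coding start within 1 kb.

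The 4 members on the X chromosome, Rpl10, Rpl36a, Rpl39 and Rps4x, were unmarked or weakly marked. Rpl10, a large subunit protein close to the tRNA binding sites, had no H3K27ac peak within 5 kb at any stage; the nearest lay 9554, 8365, 8253, 8326, 8447 and 8492 bp away. Its only H3K4me1 peak within 5 kb was a 373 bp one at OB, 3127 bp from the gene. Rpl36a had neither mark, with the nearest H3K27ac peak 43541 bp away at Pre_PS and 12977 to 13165 bp later. Rpl39, a small protein of the exit tunnel, had a 368 bp H3K27ac peak at EHF with a fold of 3.69, at percentile 0.924 among start peaks, and a 570 bp H3K4me1 peak at Pre_PS, and nothing in the other 10 lists. Rps4x had H3K27ac at the 5 later stages, with widths of 861, 343, 794, 502 and 740 bp and percentiles among start peaks of 2.04, 6.83, 12.5, 12.5 and 8.60.

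Within 5 kb of the gene, H3K27ac was thus found at 1, 1, 1, 1 and 2 of the 4 X-linked members from ES to EHF, and at 71, 70, 71, 71 and 70 of the 72 autosomal ones. Over all protein-coding genes the share was 45.5 to 50.3% on X and 73.0 to 75.5% on autosomes at these stages, so X genes were marked less widely in general, and 4 genes are too few to set apart from that. How reads with several matches were treated is not given in the sources used here. RefSeq names 6 pseudogenes after Rpl10, 3 after Rpl36a and 1 each after Rpl39 and Rps4x, where the median over the 76 members is 2; the part of such copies in the missing peaks was not tested.

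Among autosomal members, Rps9 stood alone. Rps9 encodes a small subunit protein needed early in the assembly of the small subunit (chromosome 7, 3703954 to 3706897), and neither mark lay within 5 kb in any list. The nearest H3K27ac peak was 9186, 8724, 8376, 8789, 8215 and 8413 bp from the gene and the nearest H3K4me1 peak 8329 to 9168 bp, a similar distance in all lists. RefSeq names 0 pseudogenes after it. With Rpl36a it makes up the 2 members (2.63%, against 19.0% of all genes) without a peak in any of the 12 lists. Rpl3, a large subunit protein near the peptidyl transferase centre, had only narrow, weak peaks: H3K27ac of 407 bp at ES, 410 at LS and 413 at OB, at percentiles 14.3, 10.3 and 25.1 among all peaks, and H3K4me1 of 317 bp at MS, 328 at OB and 353 at EHF.

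Rpl41 and Rps28 had marks nearby without a constant start peak. The H3K27ac start peak of Rpl41, the smallest ribosomal protein, was 5362 bp wide at ES and 2290 bp at LS and was absent at MS, OB and EHF, where peaks within 5 kb reached percentiles of 84.2, 98.1 and 98.1 among all peaks but lay outside the 500 bp window. Rps28, a small subunit protein at the mRNA exit, had start peaks of 455, 502, 323 and 640 bp from MS to EHF and none at ES. Its strongest peak within 5 kb (percentile 97.4 to 99.4 at the later stages) did not reach its start. Rpl37a had no H3K4me1 within 5 kb at MS, between start peaks of 589 bp at ES and 520 bp at LS.

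The 3 proteins of the acidic stalk, which recruits translation factors to the ribosome, were marked by H3K27ac in every list within 5 kb. The same held for 71.1% of all members and 51.6% of all protein-coding genes. Rplp0, the stalk base, had H3K27ac percentiles among start peaks of 90.8, 67.9, 67.7, 78.6, 95.6 and 51.6, and widths from 846 bp at OB to 2237 bp at EHF. Rplp2 had no start peak of either mark at Pre_PS and then 82.1, 64.4, 76.4, 89.0 and 93.5 for H3K27ac, against 23.7, 26.6, 40.2, 38.2 and 35.9 for H3K4me1. Rplp1, whose start is not listed, had its strongest H3K27ac peak within 5 kb at 34.1, 62.1, 70.8, 71.6, 72.5 and 79.3 among all peaks, and 33.6 to 66.0 for H3K4me1. Rpsa, a small subunit protein also described as a laminin receptor, had H3K27ac percentiles among start peaks of 43.4, 57.7, 77.5, 47.2, 57.7 and 66.7.

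Rpl5 and Rpl11 join the 5S RNA and, with Rpl23, can bind MDM2 and so stabilise p53 when ribosome assembly fails. Rpl5 was marked strongly at all stages, with H3K27ac percentiles among start peaks of 91.3, 93.0, 73.8, 84.3, 92.5 and 70.1 against 30.1, 44.2, 56.0, 25.1, 45.7 and 58.9 for H3K4me1. The ranges of its marks did not overlap. Rpl11 went from 27.7 and 48.4 at Pre_PS and ES to 81.8, 90.2, 90.5 and 74.1. Rpl23 had 23.4, 50.5, 40.0, 79.9, 66.6 and 64.6. With 1 library a stage, these courses cannot be told from differences between libraries.

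In Diamond-Blackfan anaemia too little of 1 ribosomal protein impairs red cell formation. Of 10 genes listed for it, H3K27ac lay within 5 kb at all 5 later stages for 10 and H3K4me1 for 10. The shares were 93.4 and 92.1% over all members, and 69.4 and 71.5% over all protein-coding genes. The median start peak percentile among all peaks was 84.0 and 71.2 over the 9 with a listed start. List by list, the medians of all members were 82.9 to 87.3 and 63.8 to 72.0, so these genes were marked much like the other members. Rps19, the gene most often affected, had H3K27ac widths of 1070, 1325, 1167, 1057, 876 and 1216 bp and percentiles among start peaks of 53.8, 84.2, 74.0, 73.7, 83.1 and 80.8. The 6 genes with known mouse mutants of pigment, skeleton or tail had H3K27ac within 5 kb in all 6 lists. So did 71.1% of all members and 51.6% of all protein-coding genes, and 6 genes are too few to set apart from the other members. Rpl38, whose loss alters the pattern of vertebrae in the Tail short mouse, had 36.2, 84.7, 66.1, 56.9, 52.6 and 68.7 for H3K27ac, and 26.4, 13.6, 36.2, 48.0 and 31.7 for H3K4me1 from ES to EHF. Rps7 had 32.8, 36.0, 57.3, 67.9, 67.0 and 71.8. Rps20, whose start is not listed, had its strongest H3K27ac peak at 84.8, 93.3, 91.0, 92.2, 95.3 and 83.8 among all peaks.

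Genes of both subunits were marked about as widely. H3K27ac lay within 5 kb at all 5 later stages for 42 of 46 large subunit genes and 29 of 30 small subunit genes, and H3K4me1 for 41 and 29. Over all protein-coding genes the shares were 69.4% for H3K27ac and 71.5% for H3K4me1. Median mean percentiles among all peaks were 88.1 and 84.5 for H3K27ac and 71.7 and 67.1 for H3K4me1.

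Between the early (ES, MS) and late (OB, EHF) stages few members differed the same way in all 4 lists. The labels give removal of extraembryonic tissue for ES and MS but not for OB and EHF. Stage and tissue content thus cannot be told apart in these differences. By covered bp within 5 kb of the start, 4 of 56 members were higher at both OB and EHF than at both ES and MS for H3K27ac (7.14%, against 9.15% of all genes), and 10 lower (17.9%, against 14.5%). For H3K4me1 3 were higher (5.36%, against 12%) and 5 lower (8.93%, against 9.98%). The balance of higher and lower turned with the scale: per covered Mb of the list, H3K27ac was higher in 13 (23.2%, against 15.7%) and lower in 3 (5.36%, against 5.34%), and H3K4me1 higher in 10 (17.9%, against 9.92%) and lower in 2 (3.57%, against 4.17%).

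The largest differences of covered bp per covered Mb, late minus early, were for H3K27ac 23.6 for Rps18, 19.3 for Rpl28 and 14.5 for Rpl13a, and -39.0 for Rpl41, -25.2 for Rps15 and -9.29 for Rps10. Rpl28, a large subunit protein, had 1861, 3356, 3225, 3027 and 3396 covered bp of H3K27ac from ES to EHF, so ES alone was low. For H3K4me1 the largest differences were 20.6 for Rpl13a, 16.9 for Rpl41 and 14.9 for Rps10, and -12.1 for Rpl28, -8.04 for Rps24 and -6.19 for Rpsa. Rpl41, Rpl28 and Rps10 differed in opposite directions in the 2 marks.

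Of 14 relatives outside the naming rule, 13 were found as protein-coding. Fau, which encodes the small subunit protein eS30 fused to a ubiquitin-like protein, and Rps3a1 had start peaks of both marks at all 6 stages, with mean H3K27ac percentiles among all peaks of 93.2 and 82.7. Rpl36al, a retained copy of Rpl36a on chromosome 12, had them as well, with 99.6 for H3K27ac and 92.6 for H3K4me1, while Rpl36a itself had no peak. Rps27l had 94.8. Rpl10l, the testis copy of Rpl10, had start peaks at 5 stages with a mean H3K27ac percentile of 18.9, and Rpl39l, a testis copy of Rpl39, had 1 H3K27ac and 2 H3K4me1 lists with a start peak. Rpl3l, a muscle copy of Rpl3, had start peaks at 5 stages with a mean of 40.8.

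Most pseudogenes named after these genes overlapped no peak. As the treatment of reads with several matches is not given, a missing peak there does not show that a mark is absent. Of 316 pseudogenes named after a member, 0.949 to 9.18% overlapped an H3K27ac peak over the 6 stages and 6.65 to 12.7% an H3K4me1 peak. The ranges for 10192 other pseudogenes were 1.60 to 8.17% and 5.26 to 10.8%, and those for the members themselves 63.2 to 93.4% and 55.3 to 92.1%. Pseudogenes whose RefSeq name does not carry the parent's symbol are not counted among the 316.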

How the data were processed

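H3K27ac and H3K4me1 were mapped by CoBATCH in embryos of 6 stages, with 1 library for each stage and mark. The submitters' processing notes name Bowtie2, Picard, MACS2, deepTools and the mm10 build, as tools of the authors; versions, settings, cells per list and library depths were not given in the sources used here. Each deposited file is a list of broad peaks. Column 7 of it, the authors' fold, is a ratio of signal over background for a peak and was only ranked within its list. The authors' −log10 p and −log10 q served in alternatives, and their deposited score, 10 times −log10 q, was left aside.

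Peaks on chromosomes 1 to 19 and X were joined to RefSeq genes of GRCm38.p6 (Python 3.11.15). Starts and strands came from the RefSeq promoter table, which lists a start for 56 of the 76 members. Some items are not reported here. A peak was near a gene within 5 kb of the gene, and a start peak overlapped the 500 bp on either side of a start by at least 1 bp; where several did, the one with the largest overlap was used. Percentiles ranked the fold within a list, or among start peaks of all protein-coding genes in the list. Covered bp were counted within 5 kb of the start farthest upstream. Without replicates no test was run; members were set beside all protein-coding genes. Overlap functions were tested on simulated data, with 0 wrong of 1000 queries.

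The members and the lists were chosen with earlier results of these data known. Genes were named by rule: members without a start peak in a later H3K27ac list, the 5 widest and narrowest and the 5 highest and lowest by H3K27ac percentile, the 3 largest late minus early differences each way, members without H3K4me1 nearby at a later stage, and the listed groups and relatives. The comparison of the 2 marks gene by gene, the pseudogene counts and the split by promoter words were added after the data were seen.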

Additional observations from a re-analysis of the deposited data

How the results depend on the processing

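Of 137 values recomputed under another setting, 111 stayed within the limits used (1.5 times a count, or the 95% interval of a median or share) and 26 moved. With the upper 50% of each list by −log10 q, H3K27ac lay within 5 kb of 35 members and over the start of 21 at all 6 stages (54 and 34 with all peaks), and H3K4me1 over the start of 17 (28 with all peaks). Without peaks at the lowest p of their list, H3K4me1 lay within 5 kb of 33 members (50 with all) and over the start of 16; the start base alone also gave 16. Over the 5 stages after Pre_PS, a choice made after seeing the data, H3K4me1 lay over the start of 48 members.

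Ranking among start peaks in place of all peaks of a list moved the medians to 61.3, 61.5, 62.4, 66.6 and 68.4 for H3K27ac and to 27.2, 29.5, 31.6, 31.2 and 26.7 for H3K4me1 from ES to EHF. Covered bp in place of peak width gave 630 bp for H3K27ac at Pre_PS and 1050 bp for H3K4me1 at ES. With 1 kb searched on each side, the H3K4me1 list of Pre_PS held 0 members with an uncovered start, against 1. Per covered Mb, the late stages were both above the early ones in 23.2% of members for H3K27ac and 17.9% for H3K4me1, and both below in 5.36% and 3.57%. With Pre_PS and ES as early stages, 0% were below for H3K27ac (against 2.65% of all genes) and 16.1% above for H3K4me1 (against 20.9%). The count of 34 members with H3K27ac ranked above H3K4me1 at all 5 later stages was 34 with −log10 q and 31 with ranks among all peaks, and 68.4% without members that share a start region with a neighbour; these settings were chosen after seeing the data. The cause of the moved values was not tested.

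No paired analysis was possible because each stage and mark had 1 library. The depth of the libraries is unknown, so a missing peak, at Pre_PS above all, does not show that a mark is absent.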
